A study of Mus musculus with 20 samples.

Results

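Goblet cells of the distal colon (DC) were followed through 9 of the genes that define them. The members were Clca1, Fcgbp, Zg16, Tff3 and Spink4, which encode secreted proteins, Agr2, which encodes a folding enzyme of the secretory pathway, Atoh1 and Spdef, which encode transcription factors, and Fer1l6, which encodes a ferlin. They were found by symbol, through the Ensembl identifiers of the count table, by a rule that uses no measured value, although the set was drawn up with earlier results of these data known. All 9 were among the 26619 genes of the table, and all 9 were among the 17893 genes that passed the filter on low counts.

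C57BL/6 mice were weaned, from 3 weeks of age on, onto the Total Western Diet (TWD), which is formulated to resemble what people in the United States eat. After 6 weeks the TWD was either kept without an addition (0% RPS, the control group) or supplemented by weight with 2, 5 or 10% resistant potato starch (RPS), named raw potato starch in the sample labels, and this lasted a further 3 weeks. RNA came from a whole piece of colon cut close to the anus, and 1 library was sequenced for each of 20 mice, 5 per diet. All groups shared the TWD, so no group was on standard chow. For 3 mice the labels name more than 1 RPS level. Mouse RS10_717 was taken as 5% RPS and is 2% RPS by its treatment label, mouse RS10_725 was taken as 10% and is 5%, and mouse RS10_748 was taken as 2% and is 10%.

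Goblet cells are secretory epithelial cells that make the mucus gel between the colonic epithelium and the microbiota. The gel is a network of the mucin Muc2, which is folded and packed in the endoplasmic reticulum with the help of Agr2 and is released together with Clca1, Fcgbp, Zg16 and Tff3. Precursors that escape Notch signalling express Atoh1 and enter the secretory lineage, and Spdef then drives goblet cell maturation. In the distal colon goblet cells are abundant and the mucus layer is thick.

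The total count per library lay between 18.4 and 34.97 megacounts. The mean ± SD of 5 mice was 32.8 ± 1.35 on 0% RPS, 27.9 ± 2.61 on 2%, 28.3 ± 3.40 on 5% and 24.3 ± 3.42 megacounts on 10% RPS. The lowest count of any member in any library was 732, for Atoh1, and the highest was 103858, for Clca1, so counting error was small beside the spread between mice. Markers of squamous epithelium summed to at most 7.84 CPM (the count of a gene over the library total in megacounts, after scaling) in any library. Markers of pancreas summed to 4573 CPM in mouse RS10_721, on 5% RPS, and to 409 CPM in mouse RS10_784, on 10% RPS, against at most 12.1 CPM elsewhere, and values without these mice are given where they differ.

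Promoter sequences were at hand for 4 of the 9 members, in the RefSeq table of the GRCm38.p6 build. They are shown because they include both regulators, Spdef and Atoh1, and a pair of genes, Fcgbp and Agr2, whose levels varied together between mice. Each is the 250 bases before the start of the gene, read 5′ to 3′ on the strand of the gene. Fcgbp is at chr7:28070986-28071235 on the plus strand, Agr2 at chr12:35992675-35992924 on the plus strand, Spdef at chr17:27728952-27729201 on the minus strand and Atoh1 at chr6:64728875-64729124 on the plus strand. Capitals mark the E-box CAGCTG, the kind of site that Atoh1 and other basic helix-loop-helix factors bind.
Fcgbp: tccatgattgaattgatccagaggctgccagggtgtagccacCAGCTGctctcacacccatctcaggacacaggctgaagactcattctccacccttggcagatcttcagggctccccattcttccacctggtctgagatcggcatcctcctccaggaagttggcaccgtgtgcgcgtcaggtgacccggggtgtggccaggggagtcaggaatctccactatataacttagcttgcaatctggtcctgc
Agr2: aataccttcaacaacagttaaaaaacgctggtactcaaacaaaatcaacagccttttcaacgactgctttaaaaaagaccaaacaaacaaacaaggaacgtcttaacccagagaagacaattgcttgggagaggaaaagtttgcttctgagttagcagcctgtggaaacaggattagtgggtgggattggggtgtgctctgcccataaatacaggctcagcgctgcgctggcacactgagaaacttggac
Spdef: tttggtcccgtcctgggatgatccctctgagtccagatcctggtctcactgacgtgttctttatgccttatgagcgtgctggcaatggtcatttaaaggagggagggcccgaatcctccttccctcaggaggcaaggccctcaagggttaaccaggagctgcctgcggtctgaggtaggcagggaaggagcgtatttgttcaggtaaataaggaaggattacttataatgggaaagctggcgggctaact
Atoh1: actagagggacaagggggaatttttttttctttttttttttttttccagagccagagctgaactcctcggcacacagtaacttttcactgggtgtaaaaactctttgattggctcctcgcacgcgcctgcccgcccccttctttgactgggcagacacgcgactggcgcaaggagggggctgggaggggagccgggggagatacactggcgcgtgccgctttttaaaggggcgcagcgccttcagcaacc
The E-box CAGCTG was found in the window of Fcgbp, 208 bases before the start, and in 13.0% of all 32851 windows of the table. The motif CCGGAT, a core that SPDEF and other ETS factors can bind, was searched on both strands. It was in 4.94% of all windows and in none of these 4.

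The secreted proteins led the group by level. At 0% RPS, CPM divided by exon length in kilobases (CPM per kb) placed Tff3 first with 1989 ± 155 (SD, n = 5), which ranked 14 among 17816 genes with a length. Zg16 followed with 1156 ± 207 CPM per kb, then Agr2 with 508 ± 83.0 and Clca1 with 459 ± 142. Agr2 and Clca1 did not differ beyond their spread. Spink4 with 278 ± 84.9 CPM per kb and Fcgbp with 204 ± 29.1 did not differ beyond their spread either. The regulators were far lower, with 22.4 ± 4.12 CPM per kb for Atoh1 and 16.5 ± 2.13 for Spdef, again with overlapping spreads. Fer1l6 was the lowest, with 6.27 ± 0.907 CPM per kb and rank 5322. At 10% RPS the mean of Clca1, 774 ± 188 CPM per kb, was above that of Agr2, 615 ± 168, and the order of the other 7 members was the same as at 0% RPS.

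Clca1 had the largest difference between diets of the 9 members. It encodes a secreted metalloprotease of the mucus layer that acts on the Muc2 network, and lies at chr3:144709578-144738537 on the minus strand of GRCm39. Its level at 0% RPS was 1638, 2638, 1708, 1279 and 1399 CPM in mice RS10_701, RS10_703, RS10_704, RS10_707 and RS10_708. At 10% RPS it was 2888, 2184, 3052, 4032 and 2457 CPM in mice RS10_725, RS10_727, RS10_729, RS10_731 and RS10_784. All 5 mice on 10% RPS were above the control median of 1637 CPM and 3 of 5 were above the highest control mouse, RS10_703, so the groups overlapped. Mice RS10_717, RS10_718, RS10_719, RS10_721 and RS10_724, on 5% RPS, had 2215, 2465, 2560, 3259 and 1229 CPM. This group held both a mouse above every control mouse and the lowest value of all 20 mice. At 2% RPS the level ranged from 1236 to 2538 CPM, over much the same range as the controls.

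The mean of Clca1 was 1732 ± 535 CPM at 0% RPS, 1731 ± 482 at 2%, 2346 ± 734 at 5% and 2923 ± 709.02 at 10% (SD, n = 5 mice per diet). The log2 difference from 0% RPS was 0.755 ± 0.246 (SE) at 10% RPS, a fold change of 1.69, with an adjusted p of 0.16 by the quasi-likelihood test of edgeR over all tested genes. The 95% interval of this difference ran from 0.23 to 1.28. At 5% RPS the log2 difference was 0.44 ± 0.245, with an adjusted p of 0.606, and at 2% it was -0.001 ± 0.245. A linear trend over the RPS percent gave a slope of 0.082 ± 0.022 log2 units per percent RPS and an adjusted p of 0.0529, just above the limit of 0.05. Clca1 therefore was not called by edgeR in any comparison, while DESeq2 called it at 10% RPS with an adjusted p of 0.0407. Over all alternatives the adjusted p ranged from 0.0407 to 1 for the 10% RPS difference and from 0.00676 to 1 for the slope. With the mean log2 CPM of the surface colonocyte markers as a covariate, the log2 difference at 10% RPS was 0.23 in place of 0.755. These markers themselves differed between 0 and 10% RPS.

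Fcgbp encodes a large protein of the mucus gel that is bound to Muc2, at chr7:27770661-27820287 on the plus strand of GRCm39. In the order of mice used above, the 5 control mice had 2158, 2660, 1997, 1881 and 2016 CPM of it, and the 5 mice on 10% RPS had 2262, 1800, 2678, 3291 and 2770 CPM. Of the mice on 10% RPS, 3 exceeded every control and 1, RS10_727, was below the lowest. The means were 2142 ± 305, 2183 ± 250, 2323 ± 272 and 2560 ± 561 CPM at 0, 2, 5 and 10% RPS (SD, n = 5). The log2 difference at 10% RPS was 0.26 ± 0.133 (SE), with an adjusted p of 0.361. The slope was 0.027 ± 0.012 log2 units per percent RPS, with an adjusted p of 0.221. The near copy Fcgbpl1 in the mouse genome may share reads with Fcgbp, so counts of either are uncertain, and such sharing was not tested. The level of Fcgbpl1 ranged from 0.252 to 310 CPM over the 20 mice.

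Zg16 encodes a small lectin-like protein that binds the cell wall of Gram-positive bacteria, at chr7:126649302-126686500 on the minus strand of GRCm39. It split the mice on 10% RPS, with 1154 and 1204 CPM in RS10_725 and RS10_727 and 2116, 2778 and 2386 CPM in RS10_729, RS10_731 and RS10_784. The first 2 were below all control mice, which had 1215 to 1929 CPM, and the other 3 were above all of them. Mean levels were 1928 ± 723 CPM on 10% RPS against 1629 ± 291 CPM in controls (SD, n = 5), a log2 difference of 0.24 ± 0.212 (SE) with an adjusted p of 0.63. An antisense gene, Gm44939, lies within the span of Zg16 without sharing exon bases.

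Tff3 encodes a trefoil peptide that takes part in the repair of the epithelium, at chr17:31344280-31348620 on the minus strand of GRCm39. Among the abundant members it was the one with lower means in the RPS groups. The control mice were close together, with 992, 1085, 1019, 915 and 1119 CPM in RS10_701, RS10_703, RS10_704, RS10_707 and RS10_708. At 10% RPS mice RS10_725, RS10_727, RS10_729 and RS10_784 had 718.4, 775, 852 and 880 CPM, all below the lowest control mouse, and RS10_731 had 1191 CPM, above the highest. At 5% RPS the levels were 939, 794, 990, 526 and 822 CPM in RS10_717, RS10_718, RS10_719, RS10_721 and RS10_724, with 3 of 5 below all controls. The lowest value of all 20 mice was that of RS10_721, the mouse with the highest pancreas marker sum.

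The mean of Tff3 was 1026 ± 79.8 CPM at 0% RPS, 977 ± 99.96 at 2%, 814 ± 180 at 5% and 883 ± 183 at 10% (SD, n = 5). The log2 difference was -0.33 ± 0.14 (SE) at 5% RPS, with an adjusted p of 0.485, and -0.22 ± 0.14 at 10%, with an adjusted p of 0.486. The slope over RPS percent was -0.023 ± 0.013 log2 units, with an adjusted p of 0.352. Without mice RS10_721 and RS10_784 the log2 difference at 5% RPS was -0.21, with an adjusted p of 0.758.

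Spink4 encodes a Kazal-type inhibitor of serine peptidases, at chr4:40920044-40931396 on the plus strand of GRCm39, and was the least abundant of the secreted proteins in CPM. It varied widely within each diet apart from 2% RPS, from 127 to 287 CPM at 0% RPS, 155 to 357 at 5% and 137 to 348 at 10%. The means were 198 ± 60.4, 217 ± 27.2, 237 ± 75.2 and 240 ± 88.4 CPM at 0, 2, 5 and 10% RPS (SD, n = 5). The log2 difference at 10% RPS was 0.28 ± 0.257 (SE), with an adjusted p of 0.653.

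Agr2 encodes a protein disulfide isomerase of the endoplasmic reticulum that is needed for the production of Muc2, at chr12:36042904-36054086 on the plus strand of GRCm39. Its means were 683 ± 112, 716.9 ± 144, 760 ± 113 and 827 ± 226 CPM at 0, 2, 5 and 10% RPS (SD, n = 5). As for Zg16, mice RS10_725 and RS10_727 were low at 10% RPS, with 624 and 549 CPM, and RS10_729, RS10_731 and RS10_784 were above the highest control value of 814 CPM, with 921, 985 and 1056 CPM. The log2 difference at 10% RPS was 0.28 ± 0.175 (SE), with an adjusted p of 0.474.

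The regulators differed little between diets. Atoh1, the factor that starts the secretory lineage, lies at chr6:64706109-64708229 on the plus strand of GRCm39 and has 1 exon. Its level averaged 47.5 ± 8.74, 44.1 ± 7.51, 44.8 ± 6.00 and 46.3 ± 5.26 CPM at 0, 2, 5 and 10% RPS (SD, n = 5), and no mouse on any RPS diet was outside the control range of 33.5 to 56.8 CPM. The log2 difference at 10% RPS was -0.04 with a 95% interval from -0.32 to 0.24. Spdef, the ETS factor of goblet cell maturation, lies at chr17:27933326-27947929 on the minus strand. Its means were 38.0, 37.5, 41.3 and 36.1 CPM, with coefficients of variation over the 5 mice of a diet of 12.9, 16.0, 24.1 and 12.4%. The log2 difference at 10% RPS was -0.07 with a 95% interval from -0.37 to 0.22. The highest Spdef level was 58.5 CPM in RS10_721. The adjusted p at 10% RPS was 0.926 for Atoh1 and 0.85 for Spdef. These intervals lie within a change of 1.5-fold either way at 10% RPS.

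Fer1l6 encodes a member of the ferlin family of calcium-binding membrane proteins, at chr15:58381897-58536941 on the plus strand of GRCm39. Its level lay between 39.4 and 61.1 CPM in 19 of the 20 mice and was 84.4 CPM in RS10_731. Controls averaged 50.5 ± 7.30 CPM and mice on 10% RPS 56.5 ± 17.9 CPM (SD, n = 5). The log2 difference was 0.16 ± 0.15 (SE) and an adjusted p of 0.651. Without mouse RS10_731 the log2 difference was -0.03. An antisense gene, Gm36451, covers 109 exon bases of Fer1l6, and whether reads were counted by strand is not given in the sources used here.

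**Figure D1:**
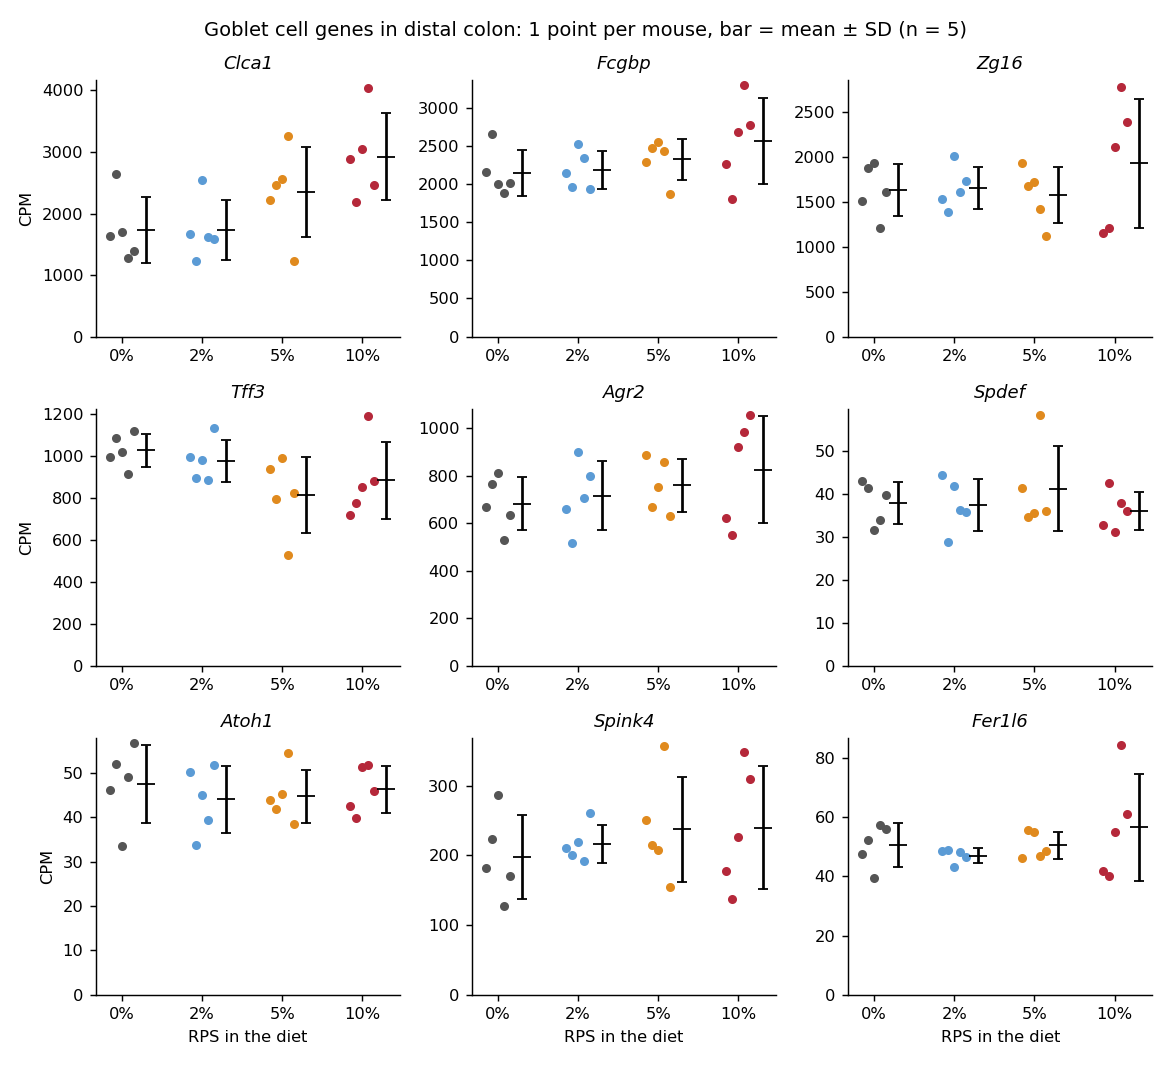
Level of each of the 9 goblet cell genes in CPM (vertical axis, from 0) against the percent of RPS in the diet (horizontal axis), with 1 point per mouse and a bar for the mean ± SD of 5 mice. Clca1 had a mean of 2923 CPM at 10% RPS against 1732 CPM at 0%, with overlapping groups, while all points of Atoh1 on RPS diets lie within the control range and Spdef has 1 high point, 58.5 CPM, at 5% RPS.

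Counted together, 0 of the 9 members were called at 10% RPS, where a call needs an adjusted p of at most 0.05 and a fold change of at least 1.5, against 0.0391% of all tested genes. At an unadjusted p under 0.05 there was 1 member, Clca1, against 15.2% of all tested genes, and DESeq2 called 1 member, again Clca1, against 1.25% of its tested genes. At 10% RPS 6 members were higher and 3 lower than at 0% RPS, with a median log2 difference of 0.24 against -0.02 over all tested genes. None of the 9 had all 5 mice at 10% RPS on one side of all 5 controls, which held for 2.28% of all tested genes. Single mice moved the log2 differences at 10% RPS of several members. Without RS10_731 they were 0.15 for Fcgbp, 0.08 for Zg16, 0.11 for Spink4 and -0.35 for Tff3. Agr2 was 0.18 without RS10_784, and Zg16 was 0.38 and Tff3 -0.15 without RS10_725. Without RS10_727, the library with the lowest total count, Fcgbp was 0.37, Agr2 0.40 and Fer1l6 0.27. The calls among all tested genes at 10% RPS then rose from 7 to 188, with 0 members called. Spink4 was 0.46 without RS10_704.

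The lower RPS levels gave 0 calls among the members and 0% among all genes by edgeR. At 5% RPS 1 member, Tff3, had an unadjusted p under 0.05, against 9.19% of all genes, and the adjusted p-values of the 9 ranged from 0.485 to 0.996. In this comparison 5 members were higher and 4 lower, with a median log2 difference of 0.12 against -0.01 over all tested genes. At 2% RPS 0 members had an unadjusted p under 0.05, against 1.41% of all genes, and 4 were higher and 5 lower. DESeq2 called 0 members at 5% RPS, against 0.195% of its tested genes, and 0 at 2% RPS, against 0.00386%. Separation of all 5 mice from all 5 controls occurred for 0 members at either level, against 1.04% of genes at 5% and 0.240% at 2% RPS.

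Across the whole series of doses, 0 members had a linear trend at an adjusted p of at most 0.05 by edgeR, against 2.10% of all genes. Clca1 and Fcgbp were the 2 members with an unadjusted p under 0.05, against 19.1% of genes. DESeq2 called 1 member, Clca1, with an adjusted p of 0.00676, against 5.60% of its tested genes. A test of any difference between the 4 diets called 0 members, against 0.0727% of genes. In that test 1 member, Clca1, had an unadjusted p under 0.05, against 10.6%, and DESeq2 called 0 members, with a lowest adjusted p of 0.0561, against 2.09% of its tested genes. The trend of Clca1 was called by edgeR when RS10_703, RS10_715, RS10_721, RS10_724 or RS10_727 was left out, with adjusted p-values from 0.0171 to 0.0457, and that of Fcgbp also passed without RS10_727, with 0.0439. The count over all genes moved as well, from 375 with all mice to 758, 487, 452, 362 and 1148 without these mice in turn.

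**Figure D2:**
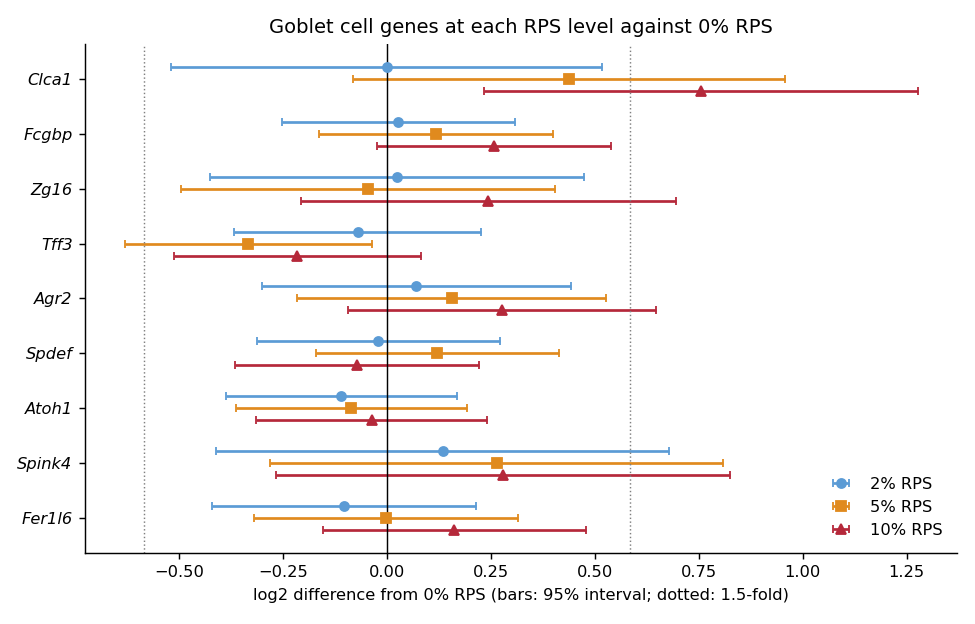
Log2 difference of each member from 0% RPS (horizontal axis) at 2, 5 and 10% RPS (circles, squares and triangles), with bars for the 95% interval from the edgeR fit over 20 mice and dotted lines at a 1.5-fold change. Clca1 at 10% RPS and Tff3 at 5% RPS are the members whose intervals leave out 0, before any adjustment for the number of genes.

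Since every ratio of members within a library is free of the scaling between libraries, the 36 ratios were compared as well. At 10% RPS 2 of the 36, or 5.56%, had all 5 mice on one side of the 5 control mice, against 1.39% of the 161028 ratios of a member to another tested gene. Both involved Clca1. The ratio of Clca1 to Tff3 counts was 1.65, 2.43, 1.68, 1.40 and 1.25 in the 5 control mice and 4.02, 2.82, 3.58, 3.39 and 2.79 in the 5 mice on 10% RPS, in the order of mice used above. The lowest value at 10% RPS was thus above the highest control value. The ratio of Clca1 to Atoh1 counts ranged between 24.6 and 50.9 in control mice and between 53.4 and 77.9 in mice on 10% RPS.

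At 5% RPS the ratio of Clca1 to Tff3 ranged from 1.495 in RS10_724 to 6.19 in RS10_721, and 0 of the 36 ratios separated the groups, against 1.38% of ratios to any gene. At 2% RPS 0 of 36 did so, against 0.109%. Clca1 over Fcgbp was 0.80 ± 0.130 at 0% RPS and 1.15 ± 0.154 at 10% RPS (SD, n = 5), with overlap through mouse RS10_784 at 0.887 and mouse RS10_703 at 0.992. The ratio of Fcgbp to Agr2, in contrast, stayed between 2.43 and 3.80 in all 20 mice. These ratios were picked from 36 after their values were known and carry no test.

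**Figure D3:**
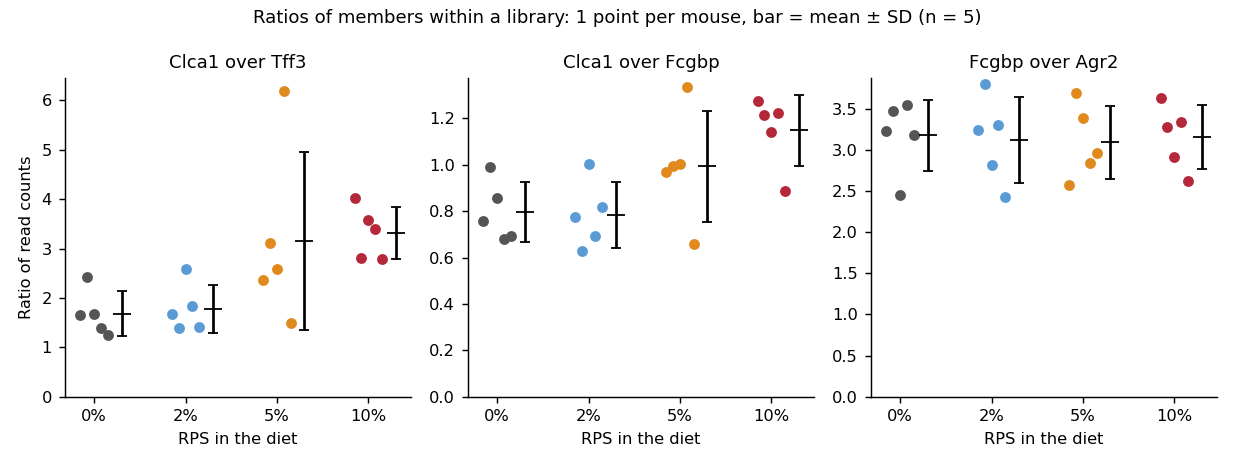
Ratio of read counts within a library (vertical axis, from 0) against the percent of RPS (horizontal axis) for Clca1 over Tff3, Clca1 over Fcgbp and Fcgbp over Agr2, with 1 point per mouse and a bar for the mean ± SD of 5 mice. The Clca1 over Tff3 points at 10% RPS, 2.79 to 4.02, lie above all points at 0% RPS, 1.25 to 2.43, and the Fcgbp over Agr2 points overlap on all diets.

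The members also varied between mice on the same diet. The lowest mouse of a diet tended to be low for many members, namely RS10_707 for 6 of 9 at 0% RPS, RS10_712 for 5 at 2%, RS10_724 for 6 at 5% and RS10_727 for 6 at 10% RPS. Mouse RS10_731 had the highest level at 10% RPS for 7 members, and its median deviation from the diet mean was 0.45 log2 units. That of RS10_727 was -0.44. The summed level of the 9 members was 7546 ± 1216 CPM at 0% RPS, 7608 ± 1077 at 2%, 8193 ± 1276 at 5% and 9499 ± 2304 at 10% RPS (SD, n = 5). In whole tissue, more goblet cells and more RNA per goblet cell cannot be told apart.

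**Figure D4:**
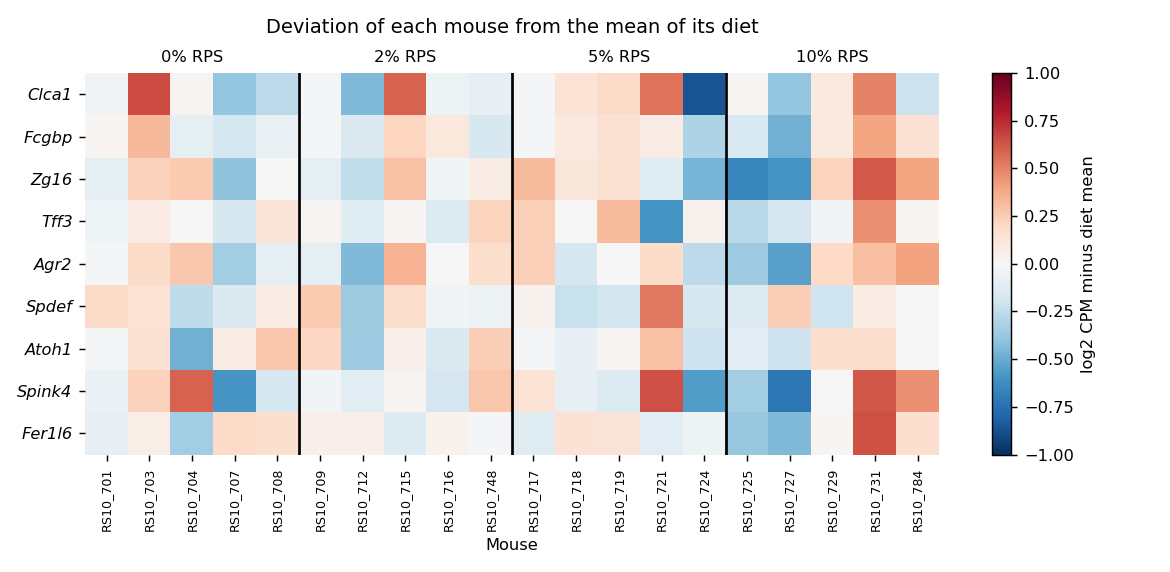
Deviation of the log2 CPM of each member (rows) in each mouse (columns, grouped by diet) from the mean of its diet, on a scale from -1 (blue) to 1 (red). Columns such as RS10_731, with a median deviation of 0.45, and RS10_727, with -0.44, are of 1 colour for most members.

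The members varied together between mice to unequal degrees. After removal of the diet means, the Pearson correlation of log2 CPM over 20 mice was above 0 for 34 of the 36 pairs, with a median r of 0.41 and a range from -0.28 to 0.88. By a two-sided permutation test within diets with adjustment over the 36 pairs, 11 pairs had an adjusted p of at most 0.05 for Pearson's r and 7 for Spearman's rho. All levels of a mouse come from 1 library and share its tissue composition.

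The strongest pair was Zg16 and Agr2, with r = 0.88 and rho = 0.88 (raw permutation p of 6e-05 and 1e-04, adjusted 0.00108 and 0.00234), and r = 0.83 without the 2 mice farthest from the median of Zg16. Agr2 and Spink4 had r = 0.83 and rho = 0.82 (raw permutation p of 5e-05 and 0.00013, adjusted 0.00108 and 0.00234), and r = 0.83 without 2 mice. Clca1 and Fcgbp had r = 0.80 and rho = 0.75 (raw permutation p of 0.00014 and 0.00069, adjusted 0.00168 and 0.00828), and r = 0.73 without 2 mice. The 10 pairs of Clca1, Fcgbp, Zg16, Spink4 and the enzyme Agr2 had r from 0.58 to 0.88, all with an adjusted p of at most 0.05 for r, but Clca1 with Zg16, Agr2 and Spink4 and Fcgbp with Spink4 missed it for rho, with adjusted permutation p-values of 0.0536 to 0.126. The other pair to pass was Zg16 and Tff3, with r = 0.60 and rho = 0.64 (raw permutation p of 0.0127 and 0.00846, adjusted 0.0416 and 0.0435), and r = 0.53 without 2 mice.

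Fcgbp and Agr2, whose promoters are printed above, had r = 0.72 and rho = 0.68 (raw permutation p of 0.00295 and 0.00672, adjusted 0.0177 and 0.0403), and r = 0.60 without 2 mice. The regulators Spdef and Atoh1 had r = 0.55 and rho = 0.49, with raw permutation p of 0.0178 and 0.0488 and adjusted values of 0.0533 and 0.146, and r = 0.36 without 2 mice. Clca1 and Tff3, the members with the largest opposite differences, had r = 0.07 and rho = 0.18, with raw permutation p of 0.819 and 0.46. Tff3 and Spdef gave the lowest r, -0.28, which was 0.07 without 2 mice.

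**Figure D5:**
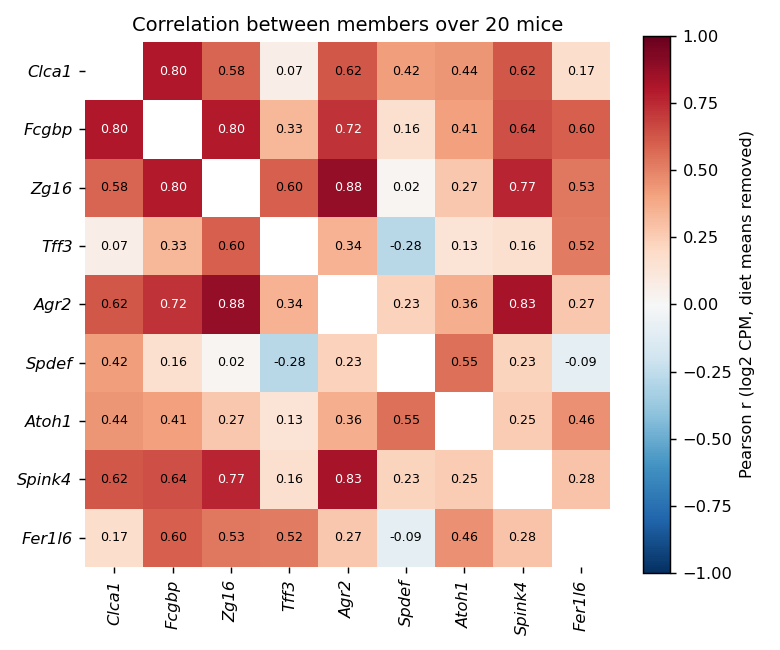
Pearson r of log2 CPM between members over 20 mice after removal of diet means, on a scale from -1 (blue) to 1 (red), with r printed in each cell. The 10 pairs of Zg16, Agr2, Spink4, Fcgbp and Clca1 run from 0.58 to 0.88, and Zg16 with Tff3, at 0.60, is within that range.

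By the same diet-centred correlation over 20 mice, each member was matched with the 1 tested gene whose level followed it most closely. For Fcgbp this was the mucin gene Muc2 itself, with r = 0.90 and a mean of 2652 CPM, and for Zg16 it was Galnt12, a glycosyltransferase that starts O-linked glycans, with r = 0.91. Clca1 was matched by Insl5, a peptide hormone of enteroendocrine cells, with r = 0.93, and Agr2 by the pentose phosphate enzyme gene Tkt, with r = 0.95. For Spink4 the gene was Serinc2 with r = 0.94, for Atoh1 Gm1123 with 0.85, for Fer1l6 Lzts3 with 0.84, for Tff3 the ligand gene Wnt4 with 0.82 and for Spdef Txndc11 with 0.80. These values were the highest among all tested genes and are descriptions without a test.

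Genes from 4 related lists were set beside the members. Of 22 other goblet genes, all tested, 17 were higher and 5 lower at 10% RPS, with 0 calls by edgeR, 1 by DESeq2, 5 genes at an unadjusted p under 0.05 (3 higher and 2 lower) and a median log2 difference of 0.11 against -0.02 over all genes. In the trend test 1 of the 22 passed, Best2, which encodes an anion channel of colonic goblet cells. It fell from a control mean of 81.8 ± 21.7 CPM to 48.7 ± 7.60 CPM on 10% RPS (SD, n = 5), with a slope of -0.08 log2 units per percent RPS and an adjusted p of 0.0117. At 10% RPS against 0% its adjusted p was 0.0659 by edgeR. Best2 was the gene called by DESeq2, with a log2 difference of -0.74 and an adjusted p of 0.00125. Muc2 averaged 2495 ± 505 CPM in controls and 3106 ± 870 CPM on 10% RPS (SD, n = 5), with an adjusted p of 0.337. The largest log2 differences of this list at 10% RPS were 3.31 for Retnlb and 3.295 for Ang4. Their adjusted p by edgeR was 0.354 and 0.263. At 5% RPS they were 6.36 and 5.24, with an adjusted p of 0.325 for each. There the SD, 10.1 CPM for Retnlb and 42.4 CPM for Ang4, was above the mean of 5.32 and 23.45 CPM.

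Of 10 Notch pathway and secretory fate genes 9 were tested, with 3 higher and 6 lower at 10% RPS, 0 calls by edgeR and by DESeq2, 0 genes at an unadjusted p under 0.05 and a median of -0.10. The 2 with the largest differences were the Notch target Hes1, at -0.21 with an adjusted p of 0.626, and the ligand gene Dll4, at -0.15 with 0.591. Of 10 type 2 cytokine genes, which act on goblet cells through IL-4 and IL-13 receptors, 7 were tested, with 4 higher and 3 lower, 0 calls by edgeR and by DESeq2, 2 genes at an unadjusted p under 0.05 (1 higher and 1 lower) and a median of 0.03. The largest log2 differences were -0.51 for the cytokine gene Tslp, with an adjusted p of 0.318, and 0.17 for the receptor gene Il4ra, with 0.481. Il13 averaged 0.00633 ± 0.0142 CPM in controls and 0.0358 ± 0.0367 CPM on 10% RPS (SD, n = 5) and was not tested. Both means are below the level of 3 counts in a library, 0.0858 to 0.163 CPM, so no difference can be read from them.

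Of 13 paralogs of members 12 were in the table and 10 were tested, with 8 higher and 2 lower at 10% RPS, 0 calls by edgeR and by DESeq2, 2 genes at an unadjusted p under 0.05, both higher, and a median of 0.36. The largest log2 differences were -3.46 for Fcgbpl1, with an adjusted p of 0.407, and 2.45 for Clca4b, with 0.26. For Fcgbpl1 the SD at 0% RPS, 138 CPM, was above the mean of 63.2 CPM. Paralogs can share reads, and how the authors divided such reads is not given in the sources used here.

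Among lists of markers of other cells, that of surface colonocytes had sums without overlap between 10% and 0% RPS. The 6 surface colonocyte markers Slc26a3, Car1, Aqp8, Krt20, Guca2a and Ceacam20 were all higher at 10% RPS, where edgeR called 0 of them, DESeq2 2 and 4 had an unadjusted p under 0.05. Car1 differed least, with a log2 difference of 0.09 ± 0.229 (SE) and an adjusted p of 0.899 by edgeR. In the trend test 4 of 6 passed. The summed level of the 6 was 4883 to 5739 CPM in mice on 10% RPS against 3240 to 4719 CPM in controls, without overlap. Such separation held for 2.28% of single tested genes. At 5% RPS the sum was 4019 to 5131 CPM and at 2% RPS 3215 to 4618 CPM, both overlapping the controls. None of the 6 was at 0. Their part in the values of Clca1 and the other members was not tested. The covariate fit cannot separate it from the diet, since the sum of these markers did not overlap between 0 and 10% RPS. The 8 general epithelium markers summed to between 13610 and 17319 CPM on 10% RPS and between 11555 and 15693 CPM in controls, with all 8 higher, 0 called by edgeR or DESeq2 and 1 at an unadjusted p under 0.05. With the mean log2 CPM of these 8 markers as a covariate the log2 difference of Clca1 at 10% RPS was 0.65. Smooth muscle markers summed to between 8089 and 10006 CPM on 10% RPS and between 6714 and 10984 CPM in controls. For stroma markers the ranges were 1400 to 1894 and 1280 to 2264 CPM. Of the 5 leukocyte markers 3 were higher and 2 lower at 10% RPS. DESeq2 called 1 of them there, Cd68, with a log2 difference of -0.59 and an adjusted p of 0.0318. By edgeR its adjusted p was 0.103. Of the 3 enteroendocrine markers 1 was higher and 2 were lower at 10% RPS, with 0 called by edgeR or DESeq2. Chga had a log2 difference of -0.27 there, with an adjusted p of 0.278 by edgeR. Leukocyte markers summed to between 39.1 and 83.9 CPM over the 20 libraries, enteroendocrine markers to between 105 and 174 CPM and Paneth cell markers to at most 16.1 CPM. Of the 4 Paneth cell markers only 2, Lyz1 and Mmp7, were among the genes counted. Of the 3 tuft cell markers all were higher at 10% RPS, 0 with an unadjusted p under 0.05 and 0 called by edgeR or DESeq2, and their sum was 19.8 to 27.8 CPM on 10% RPS against 17.1 to 21.8 CPM in controls.

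Within diets, the members were also set against the summed level of each of 10 marker lists over the 20 mice. Of these 90 pairs 2 had an adjusted p of at most 0.05 for Pearson's r and 0 for Spearman's rho, by the permutation test. Clca1 and the tuft cell markers had r = 0.79 and rho = 0.71 (raw permutation p of 0.00035 and 0.00108, adjusted 0.0198 and 0.075), and r = 0.68 without 2 mice. Spink4 and the surface colonocyte markers had r = 0.68 and rho = 0.63 (raw permutation p of 0.00044 and 0.00607, adjusted 0.0198 and 0.109), and r = 0.63 without 2 mice. For Clca1, r was 0.60 with the enteroendocrine markers and 0.12 with the surface colonocyte markers, with rho of 0.54 and 0.11, raw permutation p for r of 0.00999 and 0.65 and adjusted values of 0.0999 and 0.864. With the enteroendocrine markers r was higher for the regulators, 0.69 for Spdef and 0.68 for Atoh1, with rho of 0.70 and 0.62. Their raw permutation p for r was 0.00208 and 0.00424, with adjusted values of 0.0549 and 0.0636. The part of these cells in the levels of Clca1 and the other members was not tested.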

How the data were processed

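Polyadenylated RNA of the DC of 20 mice was sequenced as short single-end reads, 1 stranded library per mouse. The authors trimmed low-quality bases, mapped the reads to GRCm39 in CLC Genomics Workbench and deposited raw read counts per gene, with no normalisation and no pooling. The annotation release, strand setting and handling of reads with several matches are not given in the sources used here. Groups came from the description label.

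Symbols, positions and lengths came from GENCODE vM39, which held 26338 of the 26619 identifiers. Members and lists were chosen with earlier results of these data known. Genes were filtered with filterByExpr at a minimum count of 10 and scaled by TMM. Differences were tested with the robust quasi-likelihood F-test of edgeR 4.0.16 in R 4.3.3, in 1 fit over 4 diets, with Benjamini-Hochberg adjustment over 17893 genes. The 95% intervals used 16 residual degrees of freedom. DESeq2 1.42.0, the tool used by the authors, was an alternative. An adjusted p of at most 0.05 was required, with a fold change of at least 1.5 between diets. Log2 CPM used a prior count of 2. Correlations used 100000 permutations within diets. Pairs of libraries within a diet differed beyond sampling noise (chi-square per degree of freedom of 9.43 to 61.4), so none was counted as a repeat.

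Named were all 9 members, the 1 gene most alike to each, and from each list the genes past a test or else the 2 with the largest difference at 10% RPS among those with a mean of at least 1 CPM. Muc2 entered as the gene most alike to Fcgbp, and Il13, Cd68, Chga, Retnlb and Ang4 were chosen after their values were seen. Procedures were tested on simulated data. Alternatives covered the tool, scaling, filter, empirical Bayes setting, labels, covariates, mice left out, diets in the fit and the fold threshold.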

Additional observations from a re-analysis of the deposited data

Results flagged for a closer look

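In 40 groups of 5 mice (9 members and the total count, on 4 diets) the highest and lowest value were compared with the rest by Dixon's test at the 95% level, which chance passes in about 1 of 20 groups, or 2.0 of 40. It marked 2 values. Spdef in RS10_721 was 58.5 CPM, with the next mouse on 5% RPS at 41.5 CPM. This mouse also had the highest sum of pancreas markers, 4573 CPM, and the lowest Tff3 level. The total count of RS10_724 was 22.3 megacounts, with the next mouse on 5% RPS at 28.7 megacounts. The same mouse had the lowest level of its diet for 6 members.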

How the results depend on the processing

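With 5 mice per diet and a spread of up to 37.5% (coefficient of variation, Zg16 at 10% RPS), small differences of the abundant members could not be resolved. The count of members called stayed at 0 for the 2 and 5% RPS comparisons and for any diet difference under every alternative that was run. At 10% RPS it was 1 by DESeq2 (Clca1), and 0 under all others. For the linear trend it was 1 by DESeq2 and 1 without robust empirical Bayes, Clca1 both times, and 0 to 2 when each mouse was left out. The cause was not tested. By the treatment label, the lowest adjusted p of the members was 0.444 at 10% RPS and 0.281 for the trend, and without the 3 mice with more than 1 RPS level in their labels it was 0.266 and 0.12. The log2 difference of Clca1 at 10% RPS was 0.61 to 0.97 with each mouse left out. Without RS10_721 and RS10_784, left out after their pancreas markers were seen, it was 0.81.

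Signs changed for values near 0 and with covariates. Atoh1 at 10% RPS (main value -0.04) was 0.019 by the treatment label, 0.002 without the 3 mice and -0.14 to 0.036 with each mouse left out, and Fer1l6 was -0.028 (without RS10_731) to 0.27. With the epithelium markers as covariate Agr2 was -0.002 and Spink4 -0.13. With the surface colonocyte markers, a covariate added after seeing the data, Zg16 was -0.37, Agr2 -0.33 and Spink4 -0.84. These covariates differ between diets themselves. Among the 22 other member differences and slopes, not given in the text apart from Clca1 at 2% RPS, 61 of 654 alternative values changed sign. None passed the threshold. The median correlation of 0.41 was 0.34 without removal of diet means and 0.37 without 2 mice.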
